A study of Mus musculus with 13 samples.

Results

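Mouse NUT carcinomas of the pancreas with and without Sox2 were compared, 3 Sox2 KO tumors against 4 Sox2 WT tumors. They are the 7 pancreatic tumors of a series of 13, the other 6 being oral tumors, and they were chosen by their sample labels alone. The series asks whether SOX2 is needed by these tumors, and each tumor gave 1 library of ribosomal RNA-depleted total RNA. In all 7 tumors Pdx1-Cre, which acts in the progenitors of the pancreas and neighbouring foregut, drove the NCT allele (NCT+/-), a translocation allele that makes a Nutm1 fusion. The WT mice were Pdx1-Cre; NCT+/- with no floxed Sox2 allele, and the KO mice were Pdx1-Cre; NCT+/- with both Sox2 alleles floxed (Sox2fl; fl). In the 6 oral tumors a keratin Cre took the place of Pdx1-Cre, and the labels spell it KRT14-Cre for the 4 WT and KRT4Cre for the 2 KO tumors. Nothing in the sources used here gives the age of the mice or ties the tumor numbers of the KO and WT groups to each other. That each tumor came from its own mouse is not stated in the labels either, so the p-values measure the spread between these tumors.

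NUT carcinoma is a poorly differentiated squamous cancer in which a NUTM1 fusion protein holds open large acetylated chromatin domains and keeps genes such as Myc and Trp63 active. SOX2 is a high-mobility-group transcription factor that marks stem and progenitor cells of squamous epithelia and of the anterior foregut, and that is little used by the normal pancreas. In a stratified squamous epithelium, basal cells carry Krt5, Krt14 and integrins, and as cells leave the basal layer they switch to other keratins, strengthen their desmosomes, secrete barrier lipids and proteases, and at last build the cornified envelope from involucrin, loricrin and small proline-rich proteins.

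The libraries held 40964533 to 46134830 estimated counts in the WT tumors and 89562790 to 120482829 in the KO tumors, so that every KO library was deeper than every WT library. Levels are therefore given as CPM, counts scaled to a library of common size with TMM factors. Protein-coding genes took 85.05 to 88.97% of the counts of the WT tumors and 86.87 to 91.67% of those of the KO tumors. By Xist and Ddx3y, WT tumors 1 and 2 and KO tumor 3 were male and the other 4 were female. Any batch that follows genotype, depth included, cannot be told apart from Sox2 status in this design.

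Sox2 itself, a single-exon gene on chromosome 3 (GRCm38, 34650405 to 34652461), was read at 27.5, 32.2, 31.5 and 31.9 CPM in the WT tumors and 0, 0.0106 and 0.0166 CPM in the KO tumors. The 3 KO libraries held 0, 1 and 2 counts of it. Against a floor of 3 counts per library, the level in the KO tumors was at least 865-fold lower (edgeR, adjusted p = 2.35e-05). The deleted gene thus matched the label in all 7 tumors. Sox2ot, a long noncoding RNA that overlaps Sox2, was at 2.11, 2.38, 2.27 and 1.93 CPM in the WT tumors and 23.3, 12.6 and 29.4 CPM in the KO tumors (log2 fold change 3.33 ± 0.29 (SE), adjusted p = 0.00343). Its groups did not overlap.

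Basal squamous markers and Nutm1 were read in all 7 tumors, while genes of squamous differentiation, given below, mostly lay lower in KO tumors. Krt5 was at 3889.9 to 6407 CPM in WT and 6002 to 6369.6 CPM in KO tumors, and Trp63, which encodes the basal squamous factor p63, was at 605 to 965 CPM in WT and 524 to 786 CPM in KO tumors. Nutm1, which is silent in most adult tissues and marks the fusion, was at 51.6 to 57.9 CPM in WT and 47.2 to 58.6 CPM in KO tumors. Pancreatic acinar genes were near 0 in 6 of the 7 tumors, where the 12 tested members of the acinar list summed to between 4.02 and 16.6 CPM. KO tumor 3 stood apart with 313 CPM. Ctrb1, a chymotrypsinogen, was at 0.743, 9.31, 0.0212 and 0.116 CPM in the WT tumors and 0.0328, 0 and 138 CPM in the KO tumors. Cpb1, a carboxypeptidase of pancreatic juice, was at 0.545, 0.294, 0.148 and 0.0232 CPM in the WT tumors and 0.041, 0.0106 and 23.8 CPM in the KO tumors. No acinar gene was called, and without KO tumor 3 the median log2 fold change of the list went from 4.32 to -2.28.

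Across 16855 protein-coding genes tested, 14 were called higher and 66 lower in KO tumors, with a call meaning an adjusted p under 0.05 and more than a 2-fold difference. These are 0.0831% and 0.392% of the genes tested, and in all 80 the KO tumors lay wholly on one side of the WT tumors. Groups that did not overlap were common in themselves, since in 9.94% of protein-coding genes every KO tumor lay below every WT tumor and in 6.41% every KO tumor lay above. The median log2 fold change of all protein-coding genes was 0.02, with 8865 of them higher and 7988 lower. The number of calls depended heavily on the fit. When protein-coding genes were fitted alone, 3 were called up and 7 down, and DESeq2 called 172 up and 553 down. Leaving out single tumors gave 3 to 34 up and 13 to 134 down, and all 80 kept their sign wherever they were tested.

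The difference that stood furthest out among genes of known epithelial role was in keratins. Krt4 and Krt13 form the keratin pair of the suprabasal layers of moist stratified epithelia such as the oesophagus and tongue. Krt4 was at 2471, 1900.3, 2740.3 and 1341 CPM in the WT tumors and 200.1, 168 and 208 CPM in the KO tumors. WT tumor 4 was the lowest of its group, and still far above every KO tumor (log2 fold change -3.46 ± 0.28 (SE), adjusted p = 0.00256). Krt13 was at 1549.8, 1626, 2255 and 833 CPM in the WT tumors and 179, 89.7 and 95.3 CPM in the KO tumors. Here too WT tumor 4 was the lowest of its group, and all KO tumors lay below it (log2 fold change -3.69 ± 0.43 (SE), adjusted p = 0.0163). Krt4 was called in each of the 7 fits that left out 1 tumor, and Krt13 in 4 of them.

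**Figure D1:**
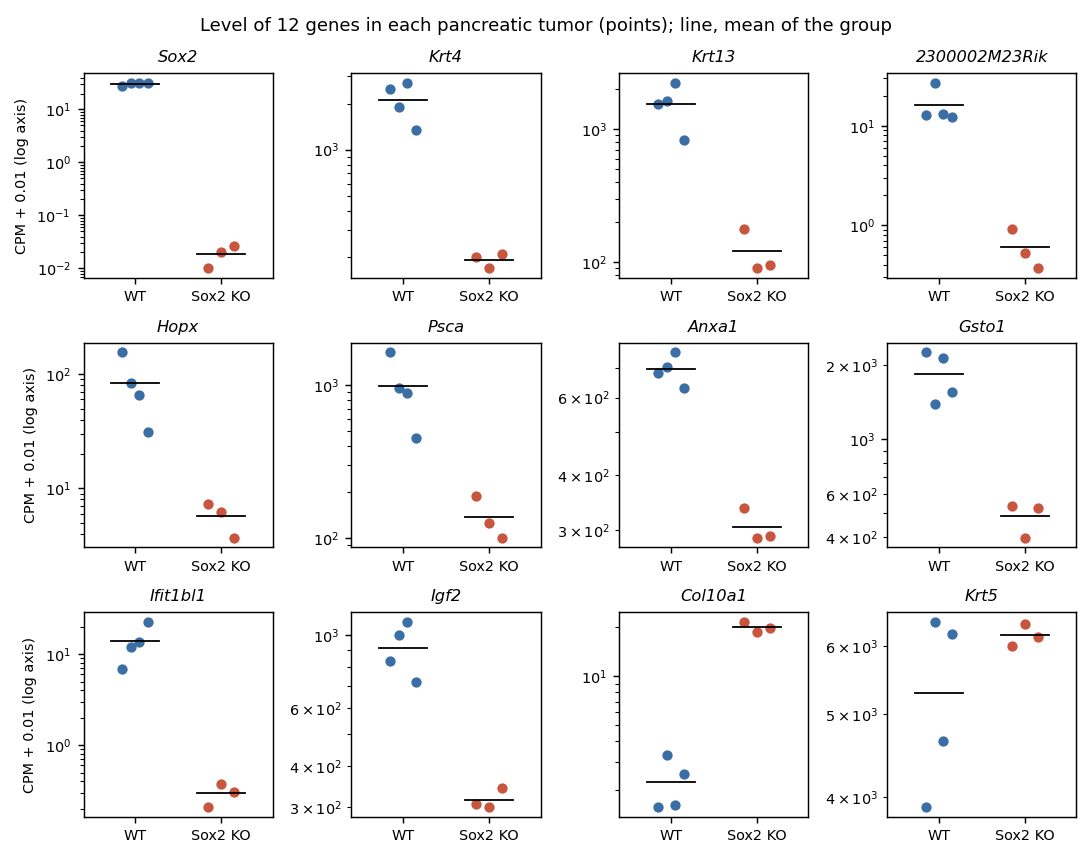
Level of 12 genes in each of the 7 pancreatic tumors, as CPM plus 0.01 on a log axis with a different range in each panel, with WT tumors in blue, KO tumors in red and a line at the mean of each group. In 11 of the 12 panels the groups do not overlap, the exception being the basal keratin Krt5, and Col10a1 is the panel in which KO tumors are higher.

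The other keratins of differentiated cells varied. Of 17 suprabasal keratins tested, 14 were lower in KO tumors and 3 higher, and Krt4 and Krt13 were the 2 that were called. The median log2 fold change of the list was -1.47, and -1.35 without KO tumor 3. In 8 of them all KO tumors lay below all WT tumors, beside 9.94% of all protein-coding genes. Krt6a, a keratin of activated and mucosal keratinocytes, was at 2424 to 4374 CPM in WT and 1091 to 2098 CPM in KO tumors (log2 -0.88, adjusted p = 0.192), and 51.3% of its 31-base sequences occur in other genes, so its value is uncertain. Krt17, which appears in the same settings, was at 828 to 1309 CPM in WT and 833 to 1547 CPM in KO tumors (log2 0.18, adjusted p = 0.764).

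In the basal compartment no gene was called. Krt5 was at 3889.9, 6407, 4651 and 6202 CPM in the WT tumors and 6002, 6369.6 and 6154 CPM in the KO tumors (log2 0.22, adjusted p = 0.659). Krt14, its partner, was at 1635 to 4135 CPM in WT and 2653 to 3724 CPM in KO tumors (log2 0.04, adjusted p = 0.97). Of 20 basal keratin and adhesion genes, 13 were higher and 7 lower in KO tumors with none called and a median of 0.13. Itga6, the alpha chain of the hemidesmosomal integrin, had a log2 fold change of 0.12 ± 0.20 (SE). For Col17a1, the hemidesmosomal collagen, it was -0.25 ± 0.25 (SE). Neither was called, and an adjusted p above the threshold does not show that the levels were equal.

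Genes of the cornified envelope and granular layer lay lower in KO tumors almost as a block, though 1 alone passed the test. Of 48 tested, 47 were lower and 1 was called. In 32 of them all KO tumors lay below all WT tumors, beside 9.94% of all protein-coding genes. The median log2 fold change was -2.16, against 0.02 over all protein-coding genes, and -1.83 without KO tumor 3. As a score, the mean log2 CPM of the list relative to the WT mean, the WT tumors ran from -0.52 to 1.04 and the KO tumors were at -1.74, -1.84 and -3.88. KO tumor 3 was thus the lowest by a wide margin, and it was also the tumor with acinar RNA. In bulk tissue, fewer differentiating cells and less RNA per cell cannot be told apart.

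The called member was 2300002M23Rik, a small gene of the major histocompatibility region on chromosome 17. It was at 12.9, 27.2, 13.1 and 12.1 CPM in the WT tumors and 0.903, 0.509 and 0.357 CPM in the KO tumors (log2 fold change -4.78 ± 0.49 (SE), adjusted p = 0.00763). WT tumor 2 was the highest, and the KO tumors were all below 1 CPM. Among the members with the highest level, Sprr1a, a small proline-rich protein of the envelope, was at 665 to 1962 CPM in WT and 104 to 1147 CPM in KO tumors (log2 -1.17, adjusted p = 0.49). Lgals7, galectin-7 of stratified epithelia, was at 467 to 655 CPM in WT and 499 to 657 CPM in KO tumors (log2 0.03, adjusted p = 0.948). Sprr2a2 was at 266 to 1059 CPM in WT and 211 to 592 CPM in KO tumors with 97.8% of such sequences shared, so its value is uncertain.

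Wider gaps were seen in late markers that failed the adjusted threshold, and 5 are given here after their values were seen. Lor, loricrin, was at 9.21, 38.8, 10.6 and 5.66 CPM in the WT tumors and 1.03, 0.732 and 0.0499 CPM in the KO tumors (log2 -4.74, adjusted p = 0.114). Rptn, repetin, was at 201, 521, 175 and 109.6 CPM in the WT tumors and 9.84, 24.8 and 1.03 CPM in the KO tumors (log2 -4.41, adjusted p = 0.124). Cnfn, cornifelin, was at 139.9, 229, 116 and 73.9 CPM in the WT tumors and 13.8, 11.7 and 1.2 CPM in the KO tumors (log2 -3.97, adjusted p = 0.0934). The groups did not overlap in any of these 3, while the KO tumors differed widely among themselves, KO tumor 3 being lowest each time. Sprr3, a small proline-rich protein of oesophageal type, was at 179 to 975 CPM in WT and 3.35 to 47.1 CPM in KO tumors (log2 -4.53, adjusted p = 0.101). Ivl, involucrin, an earlier envelope protein, was at 58.96 to 142 CPM in WT and 23.6 to 121 CPM in KO tumors, and its groups overlapped (log2 -0.40, adjusted p = 0.77).

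**Figure D2:**
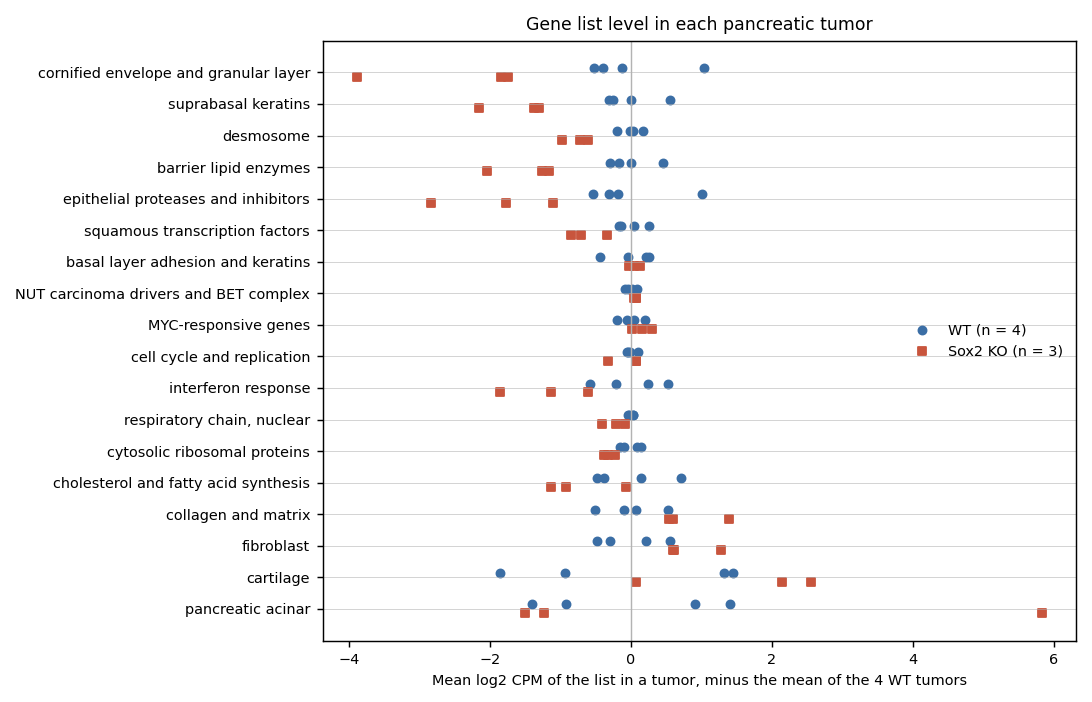
Level of 18 gene lists in each pancreatic tumor, as the mean log2 CPM of the tested members minus the mean of the 4 WT tumors, with WT tumors as blue circles and KO tumors as red squares. The KO tumors lie to the left of all WT tumors for the cornified envelope, suprabasal keratin, desmosome, barrier lipid, protease and squamous transcription factor lists. They do so as well for the interferon, nuclear respiratory chain and cytosolic ribosomal protein lists. For the collagen and fibroblast lists they lie to the right of all WT tumors, and KO tumor 3 is alone at the right end of the acinar list.

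Other parts of the differentiation programme had the same sign. All 12 desmosome genes were lower in KO tumors, with none called (median -0.64). In 8 of them all KO tumors lay below all WT tumors, beside 9.94% of all protein-coding genes. Dsp, desmoplakin, which ties desmosomes to keratin, was at 2999.6 to 4389.6 CPM in WT and 1683 to 2247 CPM in KO tumors (log2 -0.79, adjusted p = 0.109). Dsg3, a cadherin of the basal and lower layers, was at 1252 to 1719.7 CPM in WT and 682 to 1034 CPM in KO tumors (log2 -0.65, adjusted p = 0.167). Perp, a p63 target of desmosomes, had a log2 fold change of -0.64 ± 0.17 (SE), and Pkp1, plakophilin-1, one of -0.22 ± 0.24 (SE). Of 18 barrier lipid enzymes, 17 were lower and none was called (median -1.35). Elovl4, which makes the very long fatty acids of skin ceramides, was at 112, 151, 84.3 and 72.96 CPM in the WT tumors and 36.7, 22.4 and 17.6 CPM in the KO tumors (log2 fold change -2.04 ± 0.34 (SE), adjusted p = 0.0544), just outside the threshold. Of 33 epithelial proteases and inhibitors, 31 were lower and none was called (median -1.77). In this list Klk13, a kallikrein of shedding cells, was at 125 to 454 CPM in WT and 17.04 to 64.6 CPM in KO tumors (log2 -2.70, adjusted p = 0.101), whereas Serpinb5, the inhibitor maspin, was at 135 to 294 CPM in WT and 164 to 294 CPM in KO tumors (log2 -0.07, adjusted p = 0.934) and St14, the membrane protease matriptase, had a log2 fold change of -0.25 ± 0.17 (SE).

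**Figure D3:**
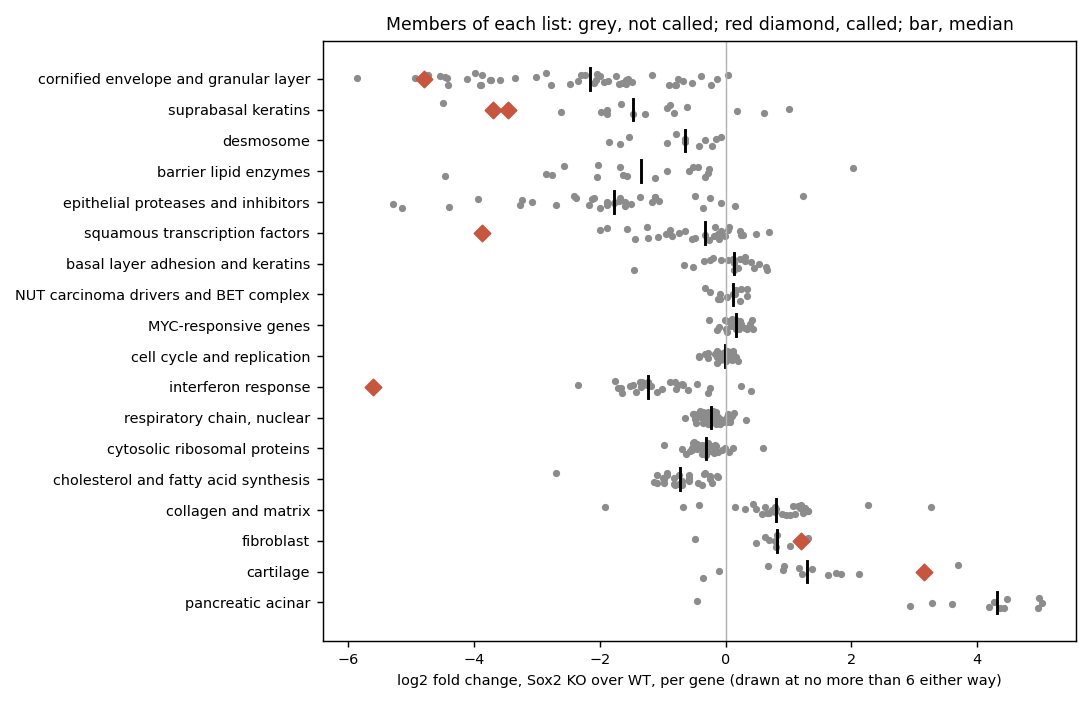
Log2 fold change, Sox2 KO over WT, of each tested member of the same 18 lists, with genes not called in grey, called genes as red diamonds and the list median as a black bar. Most members of the differentiation lists lie left of 0 with 1 or 2 called at most, while the basal, driver, MYC and cell cycle lists have medians between -0.01 and 0.17.

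Among transcription factors of squamous cells the difference was uneven. Of 31 tested, 24 were lower and 7 higher, with a median of -0.32. Hopx, a homeodomain protein without DNA binding that marks differentiating keratinocytes, was the one called. It was at 156, 84.2, 65.7 and 31.3 CPM in the WT tumors and 7.31, 6.24 and 3.67 CPM in the KO tumors (log2 fold change -3.88 ± 0.59 (SE), adjusted p = 0.0453). All KO tumors lay below the lowest WT tumor, WT tumor 1 was the highest, and the call held in 1 of the 7 fits that left out a tumor. The highest members were not called. Klf5, a regulator of epithelial progenitors, was at 776 to 929 CPM in WT and 621 to 886 CPM in KO tumors (log2 -0.12, adjusted p = 0.763). Trp63 was at 605, 965, 837 and 661 CPM in the WT tumors and 786, 524 and 530.1 CPM in the KO tumors (log2 fold change -0.32 ± 0.22 (SE), adjusted p = 0.525). Ehf, an epithelial ETS factor, was at 452 to 612 CPM in WT and 189 to 538 CPM in KO tumors (log2 -0.48, adjusted p = 0.516). Further regulators of differentiation are added after their values were seen. Elf3, another ETS factor, was at 151 to 351 CPM in WT and 55.3 to 101 CPM in KO tumors (log2 -1.56, adjusted p = 0.0796). Grhl1 and Grhl3, grainyhead factors of the barrier, had log2 fold changes of -1.24 ± 0.26 (SE) and -1.44 ± 0.38 (SE), each with groups that did not overlap and neither called.

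Nutm1 and Myc were not called, and their differences were small. Nutm1 was at 56.1, 57.4, 57.9 and 51.6 CPM in the WT tumors and 50.8, 47.2 and 58.6 CPM in the KO tumors (log2 fold change -0.10 ± 0.11 (SE), adjusted p = 0.728). Myc, the main effector of the fusion, was at 245, 305, 228 and 297 CPM in the WT tumors and 313, 320.5 and 274 CPM in the KO tumors (log2 fold change 0.17 ± 0.14 (SE), adjusted p = 0.599). Of the 13 driver genes none was called, with a median of 0.12. Over all protein-coding genes 0.0831% were called higher and 0.392% lower, so lists as short as those given here would seldom hold a call. None of the 10 candidate SOX2 partners was called either. Among these Klf4 was at 107 to 365 CPM in WT and 54.8 to 229.5 CPM in KO tumors (log2 -0.74, adjusted p = 0.609), Yap1 had a log2 fold change of 0.03 ± 0.13 (SE), and Tead1, its DNA-binding partner, one of 0.26 ± 0.11 (SE). The 30 cell cycle genes had a median of -0.01 with none called. Mki67, the proliferation marker, was at 261 to 399.9 CPM in WT and 204 to 294 CPM in KO tumors and Top2a, topoisomerase II alpha, at 158 to 202 CPM in WT and 133 to 181 CPM in KO tumors. For 25 genes that respond to MYC the median was 0.17, again with none called.

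No other Sox gene was called. Of 17 family members tested, Sox2 included, 12 were higher and 5 lower in KO tumors. Per length (RPKM, from the mean CPM of each group), Sox9 was the highest, at 99.7 in WT and 159.5 in KO tumors, followed by Sox4 at 31.98 and 36.8. Sox15 stood at 16.3 and 15.9, near the 14.97 of Sox2 in WT tumors. Sox9, a factor of pancreatic duct and of progenitors, was at 186, 689, 216 and 557 CPM in the WT tumors and 422, 821 and 735 CPM in the KO tumors (log2 fold change 0.68 ± 0.50 (SE), adjusted p = 0.559). WT tumors 1 and 3 were low, and the groups overlapped. Sox21, a repressor related to SOX2, was at 4.23 to 13.2 CPM in WT and 2.46 to 7.11 CPM in KO tumors (log2 -0.94, adjusted p = 0.393). Sox7, a factor of endothelium, was at 18.4 to 26.9 CPM in WT and 13.4 to 16.6 CPM in KO tumors (log2 -0.68, adjusted p = 0.11). Sox11 was at 9.24, 8.91, 9.22 and 43.2 CPM in the WT tumors and 27.8, 30.3 and 46.9 CPM in the KO tumors (log2 0.99, adjusted p = 0.491), where WT tumor 4 was as high as the KO tumors. Without WT tumor 4 the log2 fold change of Sox11 was 1.94, and the gene was called.

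The 20 protein-coding genes lower in KO tumors with the smallest adjusted p had mixed roles. Anxa1, annexin A1, a calcium-dependent membrane-binding protein abundant in squamous mucosa, was at 683, 706, 762 and 631 CPM in the WT tumors and 337, 288 and 291 CPM in the KO tumors (log2 fold change -1.19 ± 0.13 (SE), adjusted p = 0.0086). The tumors of each group were close together, and the call held in 6 of 7 fits that left out a tumor. Gsto1, a glutathione transferase of the omega class, was at 2263, 1396, 2150.3 and 1563 CPM in the WT tumors and 534, 397 and 527 CPM in the KO tumors (log2 fold change -1.92 ± 0.23 (SE), adjusted p = 0.0144). Defb1, an antimicrobial beta-defensin, was at 31.1, 25.1, 24.8 and 13.95 CPM in the WT tumors and 6.32, 4.97 and 4.29 CPM in the KO tumors (log2 fold change -2.19 ± 0.29 (SE), adjusted p = 0.0227). Muc15, a membrane mucin, was at 32.9, 31.5, 26.4 and 31.9 CPM in the WT tumors and 11.8, 16.1 and 11.1 CPM in the KO tumors (log2 fold change -1.24 ± 0.17 (SE), adjusted p = 0.0253). The groups did not overlap in these 4 genes. The call held in 3 of 7 fits that left out a tumor for Gsto1, in 2 for Muc15 and in 1 for Defb1. Sptlc3, a subunit of the enzyme that starts sphingolipid synthesis, was low in all tumors but tight within groups. It was at 1.44, 1.98, 2.27 and 1.65 CPM in the WT tumors and 0.23, 0.244 and 0.208 CPM in the KO tumors (log2 fold change -3.005 ± 0.30 (SE), adjusted p = 0.00682), and was called in all 7 fits that left out a tumor.

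Further members of that set follow. Pdzk1ip1, a small membrane cargo protein, had a log2 fold change of -1.70 ± 0.20 (SE), and Plbd1, a lysosomal phospholipase B-like protein, one of -2.62 ± 0.31 (SE). Flrt2, an adhesion and guidance protein, was at 152, 103, 91.97 and 222 CPM in the WT tumors and 17.4, 20.96 and 23.6 CPM in the KO tumors (log2 fold change -2.78 ± 0.34 (SE), adjusted p = 0.0211). Adgrf4, an adhesion receptor of epithelium, fell by 2.20 ± 0.29 (SE) on the log2 scale. The log2 fold change was -2.71 ± 0.35 (SE) for Fcho1, of clathrin-coated pits, -1.75 ± 0.22 (SE) for Syt16, a synaptotagmin, and -1.14 ± 0.15 (SE) for Plekhg1, an exchange factor for small GTPases. Their adjusted p in the edgeR fit ran from 0.0144 to 0.0253, and the call held in 6 of 7 fits that left out a tumor for Pdzk1ip1, 4 for Plbd1, 3 each for Flrt2 and Fcho1, 2 each for Adgrf4 and Syt16 and 1 for Plekhg1.

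Further called genes of epithelium are named after their values were seen. Psca, a lipid-anchored surface antigen, was at 1651, 965, 885 and 449 CPM in the WT tumors and 189, 124 and 99.9 CPM in the KO tumors (log2 fold change -2.84 ± 0.46 (SE), adjusted p = 0.0499). Scel, sciellin of the envelope precursor, was at 179, 172, 116 and 90.6 CPM in the WT tumors and 35.9, 46.2 and 29.7 CPM in the KO tumors (log2 fold change -1.90 ± 0.28 (SE), adjusted p = 0.037). The log2 fold change was -2.12 ± 0.34 (SE) for Scnn1a, a subunit of the epithelial sodium channel, -2.20 ± 0.33 (SE) for Slc5a1, the sodium-glucose transporter, -2.14 ± 0.36 (SE) for Il22ra1, a receptor chain for interleukin-22, and -2.21 ± 0.33 (SE) for Prss27, a serine protease. Each of these 6 was called in 1 of the 7 fits that left out a tumor, the one without WT tumor 3 for Slc5a1 and the one without WT tumor 4 for the other 5.

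The sequence before the start site is shown for 3 genes of squamous differentiation called lower, to place the letters of a SOX-type core (ACAAT) and of the AP-1 element of keratinocytes (TGANTCA), which were searched on both strands. Capitals mark matches. Sequences are RefSeq's on GRCm38.p6, the 250 bases before the start, read 5′ to 3′ in the direction of the gene. They are chr11:100121567-100121816 (minus strand) for Krt13, chr17:35567235-35567484 (plus strand) for 2300002M23Rik and chr14:103513091-103513340 (plus strand) for Scel.
Krt13: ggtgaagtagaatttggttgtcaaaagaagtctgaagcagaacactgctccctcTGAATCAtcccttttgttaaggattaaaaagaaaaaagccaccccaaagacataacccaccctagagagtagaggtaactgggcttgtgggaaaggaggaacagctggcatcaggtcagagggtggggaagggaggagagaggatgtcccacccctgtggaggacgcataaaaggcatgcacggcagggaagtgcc
2300002M23Rik: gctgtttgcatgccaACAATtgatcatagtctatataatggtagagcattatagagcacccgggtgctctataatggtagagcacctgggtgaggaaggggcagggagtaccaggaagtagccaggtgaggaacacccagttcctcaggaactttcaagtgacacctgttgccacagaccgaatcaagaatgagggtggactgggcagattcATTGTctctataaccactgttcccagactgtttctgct
Scel: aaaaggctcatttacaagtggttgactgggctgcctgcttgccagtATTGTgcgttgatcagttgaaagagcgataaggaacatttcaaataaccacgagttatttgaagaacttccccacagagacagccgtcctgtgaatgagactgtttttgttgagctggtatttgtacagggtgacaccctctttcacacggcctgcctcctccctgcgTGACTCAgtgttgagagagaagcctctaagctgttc
Krt13 held 1 AP-1 match and no SOX core, 2300002M23Rik held 2 SOX cores and no AP-1 match, and Scel held 1 of each. The 300-base windows from 250 bases before to 50 after the start, with several starts for some genes, give the setting. ACAAT occurred in 36.1% of 61 windows of 50 protein-coding genes called lower and in 4 of 10 windows of those called higher. It occurred in 22.95% of 16255 windows of protein-coding genes tested and in 31.02% of all 32851 windows. TGANTCA occurred in 11.5% of the windows of genes called lower, in none of the 10 of genes called higher, in 6.28% of those of protein-coding genes tested and in 7.81% of all windows. In the 56 windows of the cornified envelope and suprabasal keratin lists the shares were 39.3% for ACAAT and 35.7% for TGANTCA. No match of one motif overlapped a match of the other in these 3 sequences. These are matches of letters, not sites of binding.

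Interferon-stimulated genes also lay lower. Of 31 tested, 29 were lower in KO tumors, and the median log2 fold change was -1.24, or -0.90 without KO tumor 3. In 15 of them all KO tumors lay below all WT tumors, beside 9.94% of all protein-coding genes. The called one was Ifit1bl1. This gene, of a family that binds foreign RNA ends, was at 6.84, 12.01, 13.6 and 22.8 CPM in the WT tumors and 0.197, 0.36 and 0.299 CPM in the KO tumors (log2 fold change -5.59 ± 0.51 (SE), adjusted p = 0.00425). WT tumor 1 was the lowest of its group and still far above every KO tumor, and the call held in all 7 fits that left out a tumor. The signal transducers were closer. Irf7, which amplifies the response, was at 23.7 to 35.9 CPM in WT and 13.4 to 16.3 CPM in KO tumors (log2 -1.01, adjusted p = 0.0582), Stat2 at 25.1 to 37.8 CPM in WT and 12.4 to 20.2 CPM in KO tumors (log2 -0.80, adjusted p = 0.129), and Irf9 had a log2 fold change of -0.45 ± 0.21 (SE). The myeloid list, whose cells also express interferon genes, had a median of -0.29 and the lymphocyte list one of 0.72, with none called in either; their part in the interferon values was not tested.

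Of growth factor genes, Igf2 was called. This imprinted fetal growth factor was at 831, 999.7, 1097 and 718 CPM in the WT tumors and 306, 299 and 342 CPM in the KO tumors (log2 fold change -1.53 ± 0.17 (SE), adjusted p = 0.0126), and 61.9% of its 31-base sequences occur in other annotated genes, so the value is uncertain. The call held in 5 of 7 fits that left out a tumor. H19, the noncoding RNA beside it, was at 1683, 2095, 1931 and 1289 CPM in the WT tumors and 1209.9, 878 and 760.0 CPM in the KO tumors (log2 -0.88, adjusted p = 0.119), with groups that did not overlap. In the epidermal growth factor receptor axis 11 of 13 genes were lower and none was called, with Egfr at 197 to 239.6 CPM in WT and 140.2 to 158 CPM in KO tumors (log2 -0.52, adjusted p = 0.0776), Erbb3 at 179 to 301 CPM in WT and 108 to 171 CPM in KO tumors (log2 -0.75, adjusted p = 0.16) and the ligand Nrg1 at 146 to 300.2 CPM in WT and 176 to 525 CPM in KO tumors (log2 0.77, adjusted p = 0.396). Of 26 Wnt and Hedgehog genes 13 were higher and 13 lower. Wnt3a, a canonical Wnt ligand, was the called one. It was at 1.09, 0.642, 0.953 and 1.02 CPM in the WT tumors and 0.254, 0.286 and 0.233 CPM in the KO tumors, a low level in every tumor (log2 fold change -1.84 ± 0.31 (SE), adjusted p = 0.0491), and the call was lost in each of the 7 fits that left out a tumor. The 16 Notch genes had a median of 0.21 with none called, and the 15 oncofetal and insulin-like growth factor genes, Igf2 among them, one of -0.47.

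Metabolic and ribosomal lists held no called gene, though most members lay lower in KO tumors in each list but purine synthesis. In that list 12 genes were higher and 7 lower. Of 61 nuclear genes of the respiratory chain 53 were lower, with a median of -0.23 and none called. In 28 of them all KO tumors lay below all WT tumors, beside 9.94% of all protein-coding genes. Cox6b1 and Cox4i1, subunits of cytochrome oxidase, had log2 fold changes of -0.08 ± 0.13 (SE) and -0.38 ± 0.12 (SE). The medians were -0.17 for 16 nuclear ATP synthase genes, 0.07 for 19 of purine synthesis and -0.26 for 26 of glycolysis and hypoxia, with none called. The last of these was -0.04 without KO tumor 3, and that of purine synthesis was -0.03 without WT tumor 1. Of 13 mitochondrial mRNAs 12 were lower (median -0.52). Among these mt-Co1 was at 35053, 18749, 17717 and 16475 CPM in the WT tumors and 15924, 12808 and 12106 CPM in the KO tumors, WT tumor 1 standing far above the rest (log2 -0.69, adjusted p = 0.33). Of the 31-base sequences of mt-Co1 63.9% occur in other genes, so its value is uncertain. All 28 genes of cholesterol and fatty acid synthesis were lower (median -0.72, or -0.47 without KO tumor 3), and none was called. Scd2, a desaturase, was at 503 to 1573 CPM in WT and 488 to 809 CPM in KO tumors, and Srebf2, the main regulator of the pathway, had a log2 fold change of -0.43 ± 0.23 (SE). Of 38 cytosolic ribosomal protein genes 35 were lower, 18 with groups that did not overlap (median -0.32), Rplp0 having a log2 fold change of -0.57 ± 0.15 (SE). Rps14, named after its values were seen, was at 454, 531, 442 and 458 CPM in the WT tumors and 235, 230.2 and 249 CPM in the KO tumors. It passed the p threshold (adjusted p = 0.014, edgeR) and missed the 2-fold limit (-0.99 on the log2 scale). Rpl5, also named after its values were seen, was at 72.7, 80.2, 72.3 and 89.6 CPM in the WT tumors and 119, 114 and 122 CPM in the KO tumors (log2 0.59, adjusted p = 0.0582), with KO tumors above WT tumors.

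The 14 protein-coding genes called higher held no squamous gene. Stroma and vessels are the known place of 5 of them. Col10a1, a collagen of hypertrophic cartilage, was at 1.56, 3.29, 1.61 and 2.51 CPM in the WT tumors and 21.6, 18.7 and 19.8 CPM in the KO tumors (log2 fold change 3.16 ± 0.29 (SE), adjusted p = 0.00425). The KO tumors were close together, and the call held in all 7 fits that left out a tumor. Mfap5, a microfibril protein of fibroblasts, was at 7.88, 7.22, 9.45 and 10.9 CPM in the WT tumors and 18.2, 21.1 and 21.5 CPM in the KO tumors (log2 fold change 1.19 ± 0.18 (SE), adjusted p = 0.0355). Cd248, endosialin of pericytes and stromal fibroblasts, was at 10.2, 15.6, 11.5 and 15.97 CPM in the WT tumors and 29.8, 37.6 and 25.98 CPM in the KO tumors (log2 fold change 1.22 ± 0.21 (SE), adjusted p = 0.0491). Rhoj, a small GTPase of endothelium, was at 6.59, 6.15, 6.95 and 6.24 CPM in the WT tumors and 13.5, 19.97 and 12.3 CPM in the KO tumors (log2 fold change 1.23 ± 0.20 (SE), adjusted p = 0.0455). Col28a1, a minor collagen, was below 4 CPM in every tumor (log2 fold change 3.64 ± 0.59 (SE), adjusted p = 0.0453). Calls of Mfap5, Cd248, Rhoj and Col28a1 held in at most 1 of the 7 fits that left out a tumor.

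The stromal lists lay higher as well. Of 29 collagen and matrix genes 26 were higher in KO tumors, with none called (median 0.80, or 0.98 without KO tumor 3). In 10 of them all KO tumors lay above all WT tumors, beside 6.41% of all protein-coding genes. Of 12 fibroblast genes 11 were higher (median 0.81), of 14 cartilage genes 12 (median 1.29), of 12 endothelial genes all (median 0.48) and of 8 smooth muscle and pericyte genes 7 (median 0.62). The scores of the cartilage and endothelial lists overlapped between groups. For cartilage they were -1.85, 1.33, -0.93 and 1.45 in the WT tumors and 0.08, 2.55 and 2.15 in the KO tumors. The median of the cartilage list was 0.06 with DESeq2 and apeglm. Spp1, osteopontin of matrix, duct and macrophages, was at 299, 2265, 449 and 2969.8 CPM in the WT tumors and 5994, 7752 and 7852 CPM in the KO tumors (log2 2.27, adjusted p = 0.218). WT tumors 2 and 4 were far above WT tumors 1 and 3. Col1a1, fibrillar collagen of fibroblasts, was at 422 to 757 CPM in WT and 728 to 1238 CPM in KO tumors (log2 0.68, adjusted p = 0.242) and Fn1, fibronectin, at 310.0 to 538 CPM in WT and 480.1 to 1413 CPM in KO tumors (log2 0.96, adjusted p = 0.249). Hapln1, which links hyaluronan in cartilage, was at 9.06, 12.2, 29.9 and 37.8 CPM in the WT tumors and 106, 69.3 and 686 CPM in the KO tumors (log2 3.69, adjusted p = 0.119), with KO tumor 3 highest. The score of the fibroblast list was -0.48 to 0.55 over the WT tumors and 0.599, 1.284 and 0.620 in KO tumors 1, 2 and 3. How far the share of stroma goes with the lower squamous lists was not tested.

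Other cell types the tumors could hold gave no called gene. The median log2 fold change was -0.04 for 11 duct genes, -1.09 for 6 endocrine genes, -1.06 for 14 genes of gastric and intestinal epithelium, -3.14 for 7 mesothelial genes, 0.55 for 8 genes of nerve and glia, -0.38 for 9 of skeletal muscle, 0.05 for 6 of fat and 0.02 for 6 erythroid genes. Several of these medians rest on single tumors or on the fit. That of the gastric and intestinal list was 0.10 without WT tumor 1 and -1.90 without KO tumor 1, and that of the mesothelial list was -0.31 with DESeq2 and apeglm. Those of the duct, fat, erythroid and skeletal muscle lists changed sign in at least 1 of 17 alternatives. Of the 7 mesothelial genes, 4 had all KO tumors below all WT tumors, beside 9.94% of all protein-coding genes. Of the 11 duct genes, 1 had all KO tumors above, near the share of 6.41% over all protein-coding genes.

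The other genes called higher were Tnni1, slow troponin I, at 1.46 to 3.61 CPM in WT and 10.2 to 14.3 CPM in KO tumors (log2 2.15, adjusted p = 0.037), March4, a membrane ubiquitin ligase, at 0.241 to 0.487 CPM in WT and 1.74 to 5.46 CPM in KO tumors (log2 3.46, adjusted p = 0.0253), Zfp804a, a zinc finger protein, at 0.0535 to 0.302 CPM in WT and 1.79 to 3.04 CPM in KO tumors (log2 3.56, adjusted p = 0.0264), and Kcnj6, a potassium channel, at 0.396 to 0.696 CPM in WT and 1.56 to 2.76 CPM in KO tumors (log2 1.96, adjusted p = 0.0446). All 4 were below 4 CPM in every WT tumor. With 1 tumor left out, the call held in 2 of 7 fits each for March4 and Zfp804a, in 1 for Tnni1 and in none for Kcnj6. The last 5, Nup210l, Clca4a, Tpm3, Hist1h2bj and Gm43552, are taken up with chromosome 3 and with shared sequence. Of 19 foregut and pancreas transcription factors tested none was called. Onecut2 was at 636, 36.5, 559 and 593 CPM in the WT tumors and 595, 592 and 639 CPM in the KO tumors (log2 0.42, adjusted p = 0.836), WT tumor 2 being far from the rest of its group. Foxa1, a pioneer factor of foregut, was at 14.96, 6.18, 43.4 and 32.9 CPM in the WT tumors and 2.08, 4.23 and 5.62 CPM in the KO tumors (log2 -2.61, adjusted p = 0.14), with groups that did not overlap.

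Sox2 lies on chromosome 3, and the KO mice alone carried floxed alleles, so an effect of linked DNA carried along with the floxed allele cannot be told apart from loss of SOX2. Over all protein-coding genes tested 0.0831% were called higher and 0.392% lower, and 9 of 850 on chromosome 3 were called, Sox2 included. Within 20 Mb either side of Sox2, 1 of the other 114 protein-coding genes tested was called. This was Tbl1xr1, a subunit of a nuclear corepressor complex, 12.43 Mb away, at 319, 277, 303 and 244 CPM in the WT tumors and 130.3, 142 and 149 CPM in the KO tumors (log2 fold change -1.02 ± 0.13 (SE), adjusted p = 0.0181). Its call held in 2 of 7 fits that left out a tumor. Mecom, a zinc finger regulator 4.1 Mb away, was just outside the threshold and is named after its values were seen. It was at 8.37, 6.98, 8.62 and 23.4 CPM in the WT tumors and 92.6, 60.3 and 144 CPM in the KO tumors (log2 fold change 3.06 ± 0.50 (SE), adjusted p = 0.0532), WT tumor 4 being the highest of its group. Unadjusted p was under 0.05 in 15.6% of 45 genes within 5 Mb, in 24.6% of 69 genes from 5 to 20 Mb and in 23.5% of 735 genes further away. On the chromosome as a whole it was under 0.05 in 23.3% of 850 genes, and in 22.4% once the 27 members of the cornified envelope list, which lie 57.43 to 58.82 Mb away, were left out. On the other chromosomes the share ran from 14.02 to 18.85%.

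**Figure D4:**
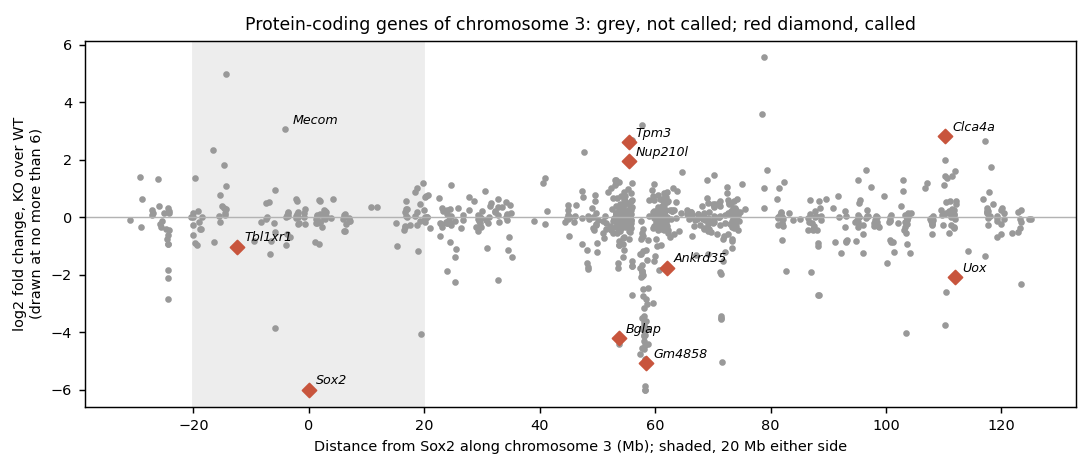
Log2 fold change of the 850 protein-coding genes tested on chromosome 3 against their distance from Sox2 in Mb, with called genes as red diamonds, others in grey, and values beyond 6 drawn at 6. The shaded 20 Mb on each side of Sox2 holds 1 called gene other than Sox2, Tbl1xr1, and a column of lower genes stands 57.43 to 58.82 Mb away where the envelope genes lie.

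Of the 9 genes called on chromosome 3, 7 lay between 53.7 and 112 Mb from Sox2. Lower were Bglap, osteocalcin of bone (0.371 to 1.39 CPM in WT and 0.0246 to 0.0665 CPM in KO tumors), Ankrd35, an ankyrin repeat protein (16.6 to 23.5 CPM in WT and 4.15 to 7.68 CPM in KO tumors), Uox, urate oxidase (32.3 to 71.7 CPM in WT and 8.9 to 17.7 CPM in KO tumors), and Gm4858, near 0 in all tumors. Higher were Clca4a, a chloride channel regulator (0.302 to 0.842 CPM in WT and 1.93 to 4.45 CPM in KO tumors), and the neighbours Tpm3 and Nup210l. Nup210l, a nucleoporin-like gene of testis, was at 1.36, 1.2, 1.04 and 0.952 CPM in the WT tumors and 4.68, 4.96 and 3.55 CPM in the KO tumors (log2 fold change 1.95 ± 0.25 (SE), adjusted p = 0.0222). It starts just after the end of Tpm3, and its call held in 2 of 7 fits that left out a tumor. Of the 31-base sequences of Bglap 62.9% occur in other genes, and of those of Clca4a 52.5%, so those 2 are uncertain.

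Tpm3-rs7 had the smallest adjusted p of the whole comparison, and it is nearly identical to another called gene. Tpm3-rs7, a copy of Tpm3 in 1 exon on chromosome 14, was at 295, 317, 306 and 332 CPM in the WT tumors and 0.878, 0.944 and 1.17 CPM in the KO tumors (log2 fold change -8.29 ± 0.18 (SE), adjusted p = 6.6e-07). Tpm3, which encodes a tropomyosin of the cytoskeleton, was at 88.8, 91.5, 95.4 and 96.3 CPM in the WT tumors and 622, 536 and 556 CPM in the KO tumors (log2 fold change 2.62 ± 0.11 (SE), adjusted p = 3.24e-05). Tpm3-rs7 thus took 76.3 to 77.6% of the sum of the 2 genes in WT tumors and 0.141 to 0.21% in KO tumors. The sum itself was 383 to 428 CPM in WT and 537 to 623 CPM in KO tumors. The coding sequence of Tpm3-rs7 differs from that of a Tpm3 transcript of the same length at 3 of 747 bases. One of the differences is shown in stretches of 60 coding bases of GENCODE M21, which lie on the plus strand of GRCm38 at chr3:90079758-90079817 and chr14:113314702-113314761, with the base that differs in capitals.
Tpm3: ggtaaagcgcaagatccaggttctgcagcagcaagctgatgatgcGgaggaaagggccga
Tpm3-rs7: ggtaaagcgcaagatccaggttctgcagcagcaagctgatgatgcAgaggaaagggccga
The substitution from Tpm3 to Tpm3-rs7 is G46A, counted from the first base shown. Reads that span no such base cannot be placed on one gene rather than the other, so both values are uncertain. In the oral tumors Tpm3-rs7 was also lower in KO (log2 fold change -10.52, adjusted p = 0.00212, edgeR).

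Shared sequence marked the calls of all gene types together. Among 2085 genes of any type with more than 50% of their 31-base sequences in other genes, 3.21% were called, 62 up and 5 down. Among 22532 genes with less sharing 0.382% were called, 19 up and 67 down. Processed pseudogenes were 788 of the former, 55 of them being called up and 1 down. Among protein-coding genes 6 of 737 with high sharing were called, 0.814%, against 0.459% of the others, 11 up and 63 down. Hist1h2bj, a histone gene with 67.2% sharing, was at 1.78, 1.98, 1.78 and 1.67 CPM in the WT tumors and 19.3, 12.02 and 21.1 CPM in the KO tumors (log2 fold change 3.28 ± 0.23 (SE), adjusted p = 0.00131). Gm43552, with 91.3% sharing, had no count in any WT tumor and 1.47, 1.18 and 0.673 CPM in the KO tumors. Both are uncertain for that reason.

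The oral tumors, 4 WT and 2 KO, give the same contrast at another site. A term for the difference between the pancreatic and oral KO effects was fitted over all 13 tumors. It passed the same thresholds in 1575 of 17462 protein-coding genes, 9.02%. Of the 66 genes called lower in the pancreas, 62 were also tested in the oral tumors, where 39 were higher and 23 lower in KO with a median log2 fold change of 0.19. The term for the difference between sites uses the pancreatic values by which these 66 were chosen, so no count of it over them is given. An oral KO library held 59.5% of its counts in protein-coding genes, below all other tumors, and the oral values rest on it and on 1 further KO tumor.

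Krt4 and Krt13 were the 2 suprabasal keratins that passed the term for the difference between sites. They and the other genes named here were called on their pancreatic values, which the term reuses. The log2 fold change of Krt4 was -3.46 in the pancreas and 2.08 in the oral tumors, a difference of -5.46 ± 0.53 (SE, adjusted p = 0.000462, edgeR). For Krt13 the values were -3.69 and 1.52, a difference of -5.14 (adjusted p = 0.00374). Both differences passed in each of 19 alternative fits. Hopx differed by -5.07 (adjusted p = 0.0279), Ifit1bl1 by -6.73 (adjusted p = 0.0104), Anxa1 by -1.44 (adjusted p = 0.0303) and Col10a1 by 4.18 (adjusted p = 0.0369). The call of the difference held in all 19 fits for Ifit1bl1 and in 14 for Hopx and for Anxa1, with adjusted p up to 0.089 and 0.151. For Anxa1 the difference was -0.88 without oral KO tumor 1, and these alternatives were not run for Col10a1. Of the 48 envelope genes 8 passed, and of the 17 suprabasal keratins Krt4 and Krt13, beside 9.02% of all protein-coding genes tested. The share among the keratins is near that of all genes. The oral medians of the 2 lists were -0.04 and 0.21. For Igf2 the oral change was -1.49, close to the -1.53 of the pancreas, and the difference between sites had an SE of 0.567 and was not called.

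**Figure D5:**
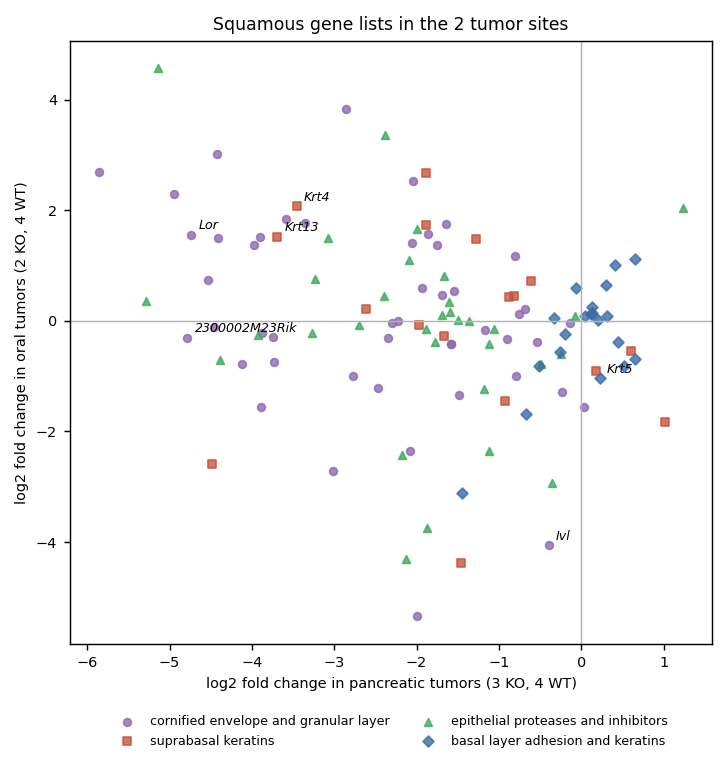
Log2 fold change, KO over WT, in pancreatic (x axis, 3 KO and 4 WT tumors) and oral tumors (y axis, 2 KO and 4 WT tumors) of the members of 4 squamous gene lists that were tested in both, each point being a gene. Points of the envelope, keratin and protease lists lie almost all left of 0 on the pancreatic axis and on both sides of 0 on the oral axis, and Krt4 and Krt13 are in the upper left.

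The first principal component of the 7 tumors held 35.4% of the variance and set the KO tumors at -38.7, -60.9 and -91.5 against 89.6, 48.4, 52.5 and 0.65 for the WT tumors. WT tumor 4 lay nearest to the KO tumors on it. The second, with 22.2%, mixed the genotypes, running from -61.7 in KO tumor 1 and -48.3 in WT tumor 1 to 57.6 in WT tumor 4 and 75.8 in WT tumor 2.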

How the data were processed

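Total RNA from 7 pancreatic and 6 oral tumors was depleted of ribosomal RNA and sequenced as stranded Illumina libraries. The authors trimmed reads (Trim Galore 0.6.10, FastQC 0.12.1), quantified them against GENCODE M23 transcripts (GRCm38) with kallisto 0.50.0 and summed them per gene with tximport. The deposited values are estimated counts, which need not be whole and which divide reads between similar transcripts by likelihood. Groups were taken from the sample labels.

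Values were rounded to whole counts. A gene had to reach 10 counts in 2 or more of the 7 pancreatic tumors, which left 24653 genes, 16855 of them protein-coding, and KO was tested against WT with edgeR 4.0.16 (R 4.3.3; TMM, robust quasi-likelihood). P-values were adjusted over all genes tested by the method of Benjamini and Hochberg, and a gene was called at an adjusted p under 0.05 and a log2 fold change beyond 1. Each SE was worked back from the test, as the absolute log2 fold change divided by the square root of the quasi-likelihood F statistic. The oral tumors were fitted alone in the same way, and the difference between sites came from 1 edgeR model of all 13 tumors, so that it need not equal the difference of the separate values. Alternatives used DESeq2 1.42.0 and apeglm 1.24.0, other filters and scaling, thinned libraries, a block for tumor number and the loss of each tumor in turn. The code was tested on simulated data.

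Genes were named by a rule: Sox2, Sox2ot and the expressed Sox family, drivers and partners, the 15 protein-coding genes higher and 20 lower with the smallest adjusted p among called genes, called list members (or up to 4 of the highest), called genes within 20 Mb of Sox2, and Xist and Ddx3y. Some genes that the rule names are not reported here. The comparison and its gene lists were chosen with earlier results of these data known. The share of 31-base sequences that a gene has in common with other genes was taken from GENCODE M21 transcripts, since M23 was not used here, and promoters from RefSeq, where Krt4 had no entry. For list scores a prior count of 2 was added before the log2.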

Additional observations from a re-analysis of the deposited data

Results flagged for a closer look

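In the group of 4 WT tumors, 9 named genes had 1 tumor far from the other 3, by the ratio of its gap to the range of the group. Among 128 groups of 4 examined, chance flags about 1 in 20. Sox2 was lowest in WT tumor 1, at 27.5 CPM, and 2300002M23Rik and Lor were highest in WT tumor 2, at 27.2 and 38.8 CPM. In WT tumor 2, Onecut2 was lowest at 36.5 CPM and the acinar gene Ctrb1 highest at 9.31 CPM. WT tumor 4 was highest for Sox11 at 43.2 CPM and for Mecom at 23.4 CPM. Dsp stood apart at 4389.6 CPM in WT tumor 2, and mt-Co1, uncertain for its shared sequence, at 35053 CPM in WT tumor 1.

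The edgeR term for the difference between pancreatic and oral tumors had an adjusted p under 0.05 in 29 named genes, with no 2-fold limit. Many of them were named by their pancreatic values, which the term reuses, so the count does not test for a difference between sites. Values are the pancreatic minus the oral log2 fold change. Among squamous genes the difference was -5.46 for Krt4, -5.14 for Krt13, -4.39 for 2300002M23Rik, -5.17 for Sprr3, -5.24 for Cnfn, -6.20 for Lor, -5.80 for Rptn, -5.07 for Hopx and -2.70 for Elf3. The basal keratin Krt5 had the opposite sign, at 1.33. Other genes lower in pancreatic KO tumors gave -1.44 for Anxa1, -1.88 for Gsto1, -2.57 for Syt16, -3.74 for Flrt2, -2.89 for Fcho1, -1.67 for Adgrf4, -3.24 for Psca and -3.78 for Uox. Without oral KO tumor 1 the difference was -0.88 for Anxa1 and -0.87 for Gsto1, and neither was called. The calls of Hopx and Psca were lost there too, at -4.04 and -2.40, and Flrt2 was at -2.42 without oral KO tumor 2. Besides oral KO tumor 1, the call of Hopx was lost without pancreatic WT tumor 1, KO tumor 2 or KO tumor 3, that of Anxa1 without any of these or WT tumor 3, that of Gsto1 without KO tumor 2 and that of Psca without KO tumor 3. Such fits were run for 9 of these genes, namely Krt4, Krt13, 2300002M23Rik, Hopx, Psca, Anxa1, Gsto1, Flrt2 and Ifit1bl1. Interferon genes gave -6.73 for Ifit1bl1 and -1.43 for Stat2.

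On the higher side were Col10a1 at 4.18, Hapln1 at 4.78, Zfp804a at 9.63, Mecom at 2.99, Rpl5 at 0.91 and Cox6b1 at 0.98. The log2 fold change of Zfp804a in the pancreas was 3.56. It failed the count filter in the oral tumors alone, so the difference of 9.63 is uncertain. For Cox6b1 the log2 fold change was -0.08 in the pancreas and -0.99 in the oral tumors (adjusted p = 0.0328, edgeR). The remaining values belong to genes with shared sequence and are uncertain, namely 13.31 for Gm43552, 6.28 for Hist1h2bj and 2.32 for Tpm3-rs7, the last of which was lower in KO tumors at both sites. The value of Gm43552 depends on the prior count, since no WT library of the pancreas held a count of it.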

How the results depend on the processing

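All 80 protein-coding calls kept their sign in every alternative that tested them, while the number of calls depended on the fit. The reported counts are 83 genes up and 72 down over all types, and 14 up and 66 down among protein-coding genes. Without the count filter 120 were down over all types and 27 protein-coding genes up. With a filter of 1 CPM in 3 tumors 42 were down over all types and 39 among protein-coding genes. With protein-coding genes fitted alone, 3 were up and 7 down. DESeq2 called 394 up and 717 down over all types, 172 and 553 among protein-coding genes, and with apeglm 334, 556, 135 and 435. In 1 fit of all 13 tumors the same counts were 55, 37, 6 and 31. Leaving out each tumor in turn gave 25 to 100 up and 14 to 169 down over all types, and 3 to 34 up and 13 to 134 down among protein-coding genes. The highest counts came without WT tumor 4, and each of the other 6 tumors, when left out, gave at most 6 up and 23 down among protein-coding genes. Another scaling, no robust fit and thinned libraries kept all 4 counts within 1.5 times. The cause of these differences was not tested.

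The tumor numbers were not treated as pairs in the reported fit. The deviations of same-numbered tumors correlated at 0.329, -0.029 and -0.069, and so few values cannot exclude a pairing. A replicate block gave 189 up and 401 down over all types and 118 up and 334 down among protein-coding genes, and a median of -0.57 for the acinar list. KO tumor 1 correlated best with its own number, at the highest value of any KO and WT tumor, while KO tumors 2 and 3 did not.

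Of the list medians, that of the acinar genes ranged from -2.28 to 4.90 as single tumors were left out, the lowest being without KO tumor 3. Shrinkage with apeglm gave -0.81 for the cornified envelope list, -0.27 for suprabasal keratins, -0.46 for barrier lipid enzymes, -0.23 for proteases and 0.043 for acinar genes, as its construction draws uncertain values to 0. The difference between sites passed in 791 protein-coding genes fitted alone, in 2562 with DESeq2 and in 786 to 2252 when single tumors were left out, with 938 without oral KO tumor 1, 990 without pancreatic WT tumor 1, 829 without WT tumor 3 and 786 without KO tumor 3. On the 500 most variable genes the first component held 40.7% of the variance. With 3 KO tumors, a difference that missed the threshold may be absent or may have gone undetected.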
